A study of Mus musculus with 10 samples.

Results

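RNA of 10 genes of iron handling was measured on arrays in epididymal white adipose tissue (eWAT). The genes were Tfrc, Trf and Slc11a2 (uptake), Fth1 and Ftl1 (storage), Slc40a1 and Cp (export), Hmox1 (release of iron from haem), and Ireb2 and Aco1 (iron regulatory proteins). They were found by their symbols among the non-control probes of each array, and all 10 had at least 1 probe, out of 34797 gene symbols on the array. In all they had 17 probes, of which 16 were well above background with a value in every mouse. The genes are named by their known roles, and no measured value enters the rule that selects their probes.

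All 10 arrays were of 1 group. The mice were wildtype males, 9 weeks old at the start, which received a low fat diet for 3 weeks and a high fat diet for 12 weeks at 29°C. They were then injected on 5 days with desferrioxamine (DFO), an iron chelator, at 100 mg/kg, and eWAT was dissected on the next day after 2 hours without food. The labels give the strain as C57BL/6J in one place and as C57BL/6JOlaHsd in another. Each array carried Cy5-labelled RNA of 1 mouse and a Cy3-labelled pool that, per the labels, held RNA of all samples of the wider study, controls and these mice included. Control arrays were not analysed here, so nothing below compares DFO with no DFO. Dyes were not swapped, so a log2 ratio of mouse over pool carries any dye bias of its probe and was not tested against 0. Nothing in the labels says how far the 10 mice shared cages or litters, so the tests measure the spread between these 10 samples.

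Cells take up iron that is bound to transferrin through transferrin receptor 1, and the transporter DMT1 moves the released iron out of the endosome. Iron that is not used is kept in ferritin, a shell of heavy and light chains, or leaves through ferroportin, helped by copper oxidases such as ceruloplasmin. When cell iron is low, both iron regulatory proteins bind hairpins in the messengers of these genes, which protects transferrin receptor messenger and holds back ferritin translation. Much of this control acts on protein synthesis and is not seen in RNA levels. In fat, macrophages are known as cells that recycle haem iron through haem oxygenase 1 and export it through ferroportin.

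The 60-base probes below are shown as 1 example probe each for genes that were highest (Hmox1, Ftl1, Slc11a2) or lowest (Trf, Cp) in the same mice, and for the Tfrc probe that differed from the one standing for its gene. Each is given 5′ to 3′ as the array files hold it, in lower case throughout since no base is singled out.
Hmox1 (A_55_P2029687): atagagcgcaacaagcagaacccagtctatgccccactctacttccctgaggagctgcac
Ftl1 (A_55_P1983959): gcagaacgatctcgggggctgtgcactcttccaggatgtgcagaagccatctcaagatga
Slc11a2 (A_52_P254298): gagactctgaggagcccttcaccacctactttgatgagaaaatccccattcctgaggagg
Trf (A_55_P2037585): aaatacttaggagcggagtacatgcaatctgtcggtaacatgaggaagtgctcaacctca
Cp (A_55_P2111302): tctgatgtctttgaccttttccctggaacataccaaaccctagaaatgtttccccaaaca
Tfrc (A_65_P06446): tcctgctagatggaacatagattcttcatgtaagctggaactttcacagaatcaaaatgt
On the mm9 build of the array files these probes lie at chr8:77620797-77620856 (Hmox1), chr7:52714014-52714495 (Ftl1), chr15:100240516-100240575 (Slc11a2), chr9:103112826-103112885 (Trf), chr3:19889071-19889130 (Cp) and chr16:32620470-32620529 (Tfrc). The Ftl1 probe spans 482 bases of the genome for its 60 bases, so it crosses an intron. Ferritin genes have near-identical processed copies in the mouse genome, so the signal of ferritin probes may hold such copies and is uncertain to that extent. No annotation of this build was used, so exons and untranslated regions are not assigned.

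Over 27718 probes well above background in Cy5 on at least 5 arrays with complete values, the first principal component held 75.1% of the variance. It parted mice 4, 5, 6 and 7 from the other 6 mice by a gap of 0.51 of its range. These 4 mice are no group of the study and lay on 3 slides, of which 2 also held one of the other mice. All 12 macrophage markers were highest in these 4 mice, with a mean log2 ratio of the list of 0.74 to 1.04, against −1.16 to −0.08 in the remaining mice. The list left out Cd163, a macrophage gene kept in the wider iron list. Cd163 was lowest in these 4 mice, at −0.27 to −0.11 against 0.15 to 0.60. Its probe was dim, well above background on 7 arrays, and was not tested for spread. All 11 adipocyte markers with complete values were lowest in them, with list means of −2.37 to −1.35 against −0.15 to 0.67. Of 6 blood markers with values 5 were lowest there, as were 3 of 4 endothelial and 2 of 5 mesothelial markers. The epididymal genes Lcn5, Lcn8, Lcn9 and Crisp1 were not well above background on any array. Prm1, Prm2 and Tnp1, genes of sperm, were below the pool in every mouse, and their list mean was highest in mouse 2 at −1.02. In bulk RNA, fewer cells of a type and less RNA per cell cannot be told apart.

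**Figure D1:**
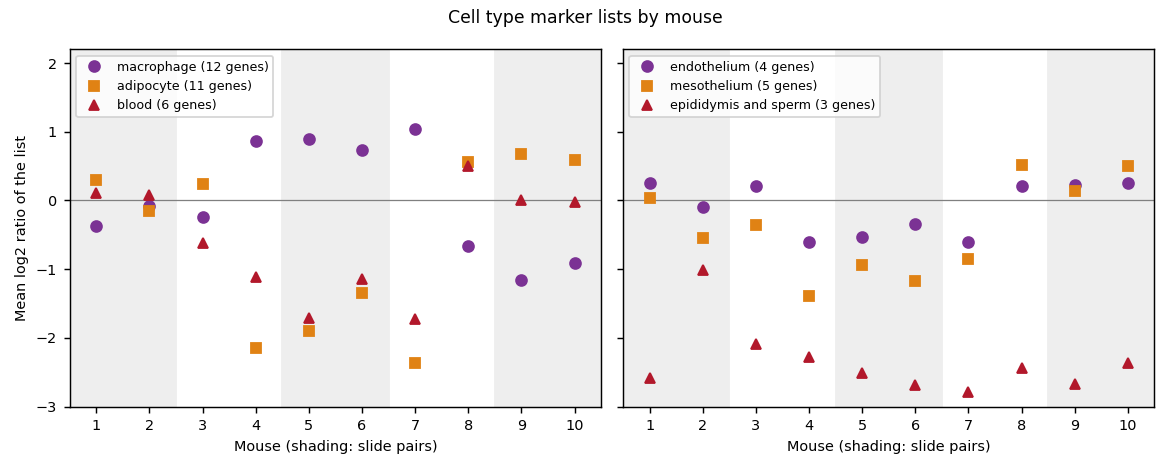
Mean log2 ratio to the pool of each cell type marker list (vertical axis) in each of the 10 mice (horizontal axis), with shading that parts the slides of 2 arrays. Macrophage means lie between 0.74 and 1.04 in mice 4, 5, 6 and 7, where adipocyte means lie between −2.37 and −1.35.

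The iron genes followed these mice in both directions. Mice 4, 5, 6 and 7 held the 4 highest values of Hmox1, Slc40a1, Ftl1, Fth1, Slc11a2 and Ireb2, which are 6 of the 10 genes. They held the 4 lowest values of Trf and Cp, and overlapped with the other mice in Tfrc and Aco1. Of all expressed probes 17.9% had their 4 highest and 21.3% their 4 lowest values in these mice, and since the mice were set apart on the same arrays no test was made. The 6 genes were highest in these mice also without background subtraction, with the scanner's ratio, with median centring and in the deposited normalized values, whereas Trf and Cp overlapped with the other mice under median centring. Macrophage and adipocyte markers moved with these differences, and their part in the result was not tested.

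**Figure D2:**
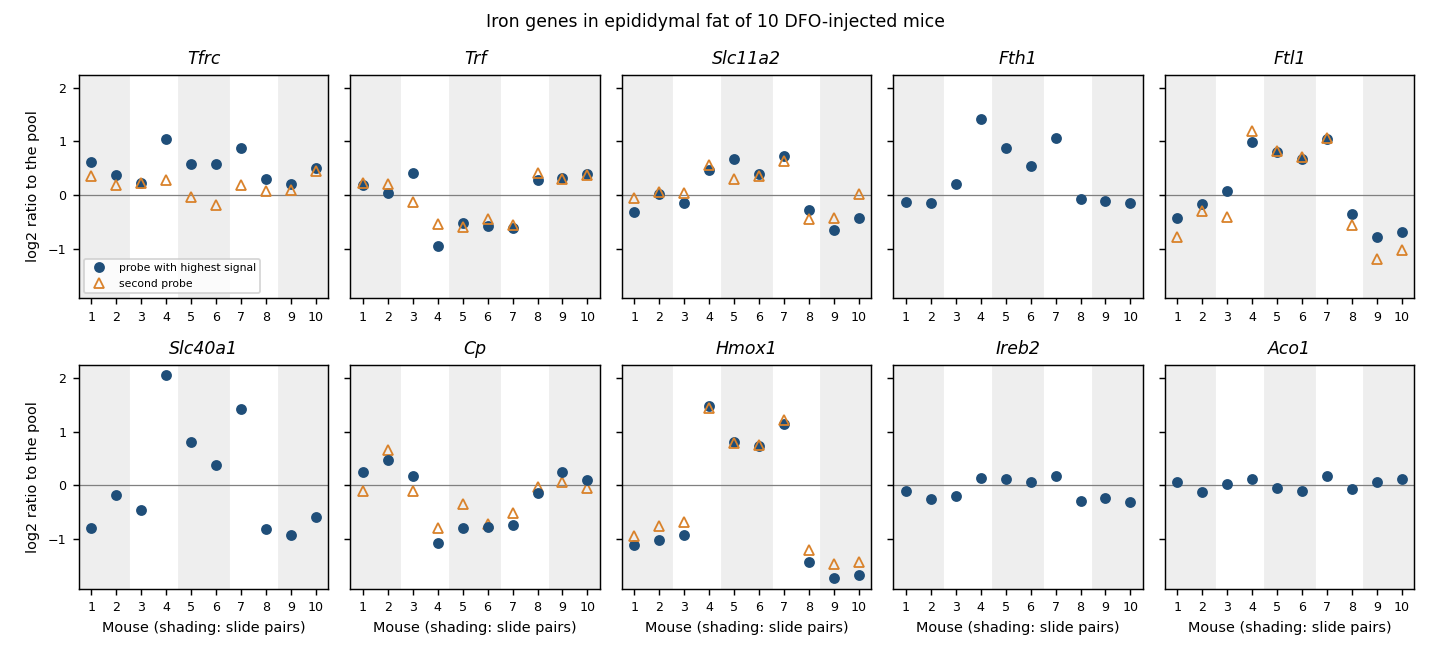
Log2 ratio of mouse over pool (vertical axis) for each iron gene in each of the 10 mice (horizontal axis), with shading that parts the slides. Filled circles are the probe of the gene with the highest mean Cy5 signal and open triangles its other usable probe. Hmox1 ranges from −1.74 in mouse 9 to 1.47 in mouse 4, while Aco1 stays between −0.12 and 0.18.

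The spread between mice was read against the pool, which was the same RNA on every array. For each probe the SD of log2 Cy5 signal was compared with the SD of log2 Cy3 signal over the 10 arrays (Pitman-Morgan test for paired variances, two-sided, Benjamini-Hochberg adjustment over 25049 probes). Of all tested probes 59.8% varied more in the mice than in the pool and 0.164% varied less. Of the 10 iron genes 8 varied more and 1 (Aco1) did not pass. For 1 gene, Ftl1, the probe that stands for it varied less in Cy5 than in Cy3. The pool channel of that probe itself parted the mice, as given below. Without normalization between arrays only Slc11a2, Slc40a1 and Hmox1 passed, beside 18.7% of all probes. No iron gene passed the test of the slide (limma moderated F test, smallest p = 0.0554 and smallest adjusted p = 0.697), nor did any of the 27718 probes, of which 1136 had an unadjusted p under 0.05.

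**Figure D3:**
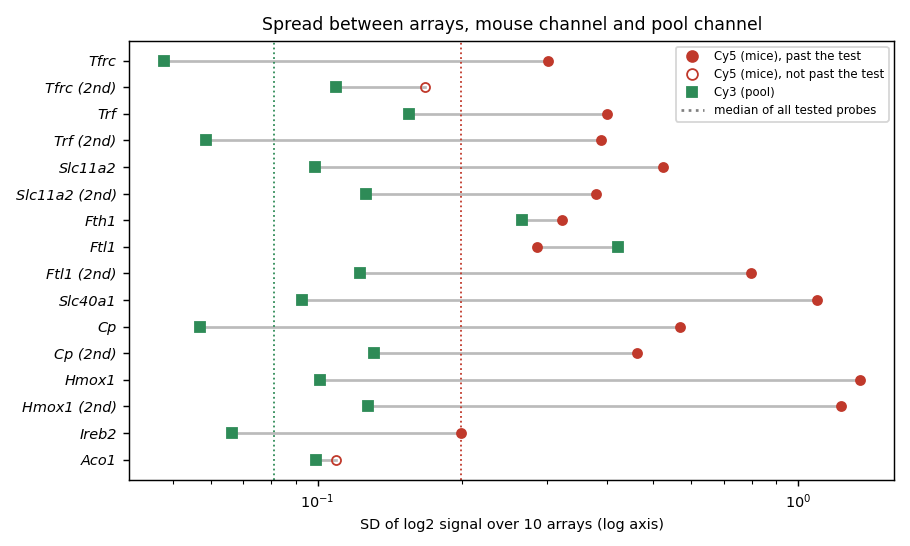
SD of log2 signal over the 10 arrays (log axis) for each usable probe of the iron genes, in the mouse channel (Cy5, circles) and in the pool channel (Cy3, squares), with dotted lines at the medians of all tested probes (0.20 and 0.08). Hmox1 shows the widest distance between its channels (1.34 against 0.10), and the first Ftl1 probe is the one case where the pool channel varied more (0.42 against 0.29).

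Hmox1 encodes haem oxygenase 1, which opens the haem ring and frees its iron. Its log2 ratio was −1.74 in the lowest mouse (mouse 9), −0.98 at the median and 1.47 in the highest (mouse 4), a range of 9.21-fold. Mice 4, 5, 6 and 7 lay between 0.72 and 1.47, and no other mouse was above −0.92. The SD was 1.34 in Cy5 against 0.10 in Cy3 (adjusted p = 7.83e-08, Pitman-Morgan test). On the slide shared by mice 3 and 4 the values were −0.92 and 1.47, and on that of mice 7 and 8 they were 1.15 and −1.44. The second probe, with the sequence above, gave the same order at its ends, from −1.47 in mouse 9 to 1.44 in mouse 4. The difference between both probes had an SD of 0.12 over the 10 mice. The SD of the log2 ratio was 1.26, and 1.27 with the scanner's own ratio, and 99.6% of all expressed probes had a smaller one.

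Slc40a1 encodes ferroportin, the only known exporter of iron in mammalian cells. Its single probe ranged from −0.94 in mouse 9 over a median of −0.33 to 2.06 in mouse 4, which is 7.96-fold. The 4 mice named above again lay highest, but they differed widely among themselves, from 0.37 in mouse 6 to 2.06 in mouse 4. The SD was 1.10 in Cy5 and 0.09 in Cy3 (adjusted p = 7.37e-07, Pitman-Morgan test). Its Cy5 signal was between 177 and 1983, with all 10 arrays well above background.

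Cp encodes ceruloplasmin, a copper oxidase that loads iron onto transferrin as it leaves the cell. Unlike ferroportin, it was lowest in mice 4, 5, 6 and 7. The log2 ratio was −1.07 in mouse 4, −0.02 at the median and 0.47 in mouse 2. The SD was 0.57 in Cy5 and 0.06 in Cy3 (adjusted p = 6.75e-06, Pitman-Morgan test). The second Cp probe, which the array assigns to another transcript of the gene, was also lowest in mouse 4 (−0.79) and highest in mouse 2 (0.66).

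Ferritin heavy chain Fth1, which carries the iron-oxidizing site, had a log2 ratio of −0.15 in mouse 10, 0.07 at the median and 1.42 in mouse 4. Mice 4, 5, 6 and 7 lay between 0.54 and 1.42, mouse 3 was at 0.21, and the others lay close together between −0.15 and −0.07. The SD of Cy5 was 0.32 and that of Cy3 0.27 (adjusted p = 0.0251, Pitman-Morgan test). This call was lost without mouse 4 (adjusted p = 0.0763), without mouse 7 (0.0628), without mouse 10 (0.0509), with the slide as a block (0.254), with an F test (0.640) and without normalization between arrays (0.867). The normalized log2 Cy3 signal of Fth1 was lowest in mice 4, 5, 6 and 7 (15.9 to 16.3 against 16.5 to 16.7). In the deposited normalized values the SD of Fth1 was 0.75.

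Ferritin light chain Ftl1, which helps to build up the iron core, gave different test results for its probes. The probe that stands for the gene ranged from −0.78 in mouse 9 over a median of −0.04 to 1.04 in mouse 7. Its SD was 0.29 in Cy5 and 0.42 in Cy3 (adjusted p = 0.00571, Pitman-Morgan test), so that the pool channel varied more. This call was lost with an F test (adjusted p = 0.332), with the slide as a block (0.144) and without normalization between arrays (0.155), where the log2 ratio of the Cy5 SD over the Cy3 SD was −0.70 against −0.56. The pool was the same RNA on every array. Yet the normalized log2 Cy3 signal was 16.3 to 16.4 in mice 4, 5, 6 and 7 and 16.9 to 17.4 in the others. The test thus cannot tell for this probe whether the mice varied less. In the deposited normalized values the SD of this probe was 0.86. The probe that crosses an intron ranged from −1.18 in mouse 9 to 1.19 in mouse 4, a range of 5.18-fold, with an SD of 0.80 in Cy5 and 0.12 in Cy3 (adjusted p = 3.15e-06). The ferritin probes lay at the top of the signal range, where 99.95% of all probes were dimmer than Fth1 and 99.98% dimmer than the first Ftl1 probe. In log2 ratio all 3 ferritin probes were highest in mice 4, 5, 6 and 7.

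Tfrc, transferrin receptor 1, was the only iron gene with all 10 mice on 1 side of the pool. The log2 ratio was 0.20 in mouse 9, 0.54 at the median and 1.04 in mouse 4, with a mean of 0.53 ± 0.27 (SD, n = 10). Of all expressed probes 4.7% were above the pool and 2.38% below it in all 10 mice, and 99.6% had a lower mean than Tfrc. Its probe was printed on 10 spots, and the SD between spots of 1 array was 0.07 to 0.16. The SD was 0.30 in Cy5 and 0.05 in Cy3 (adjusted p = 3.10e-05, Pitman-Morgan test).

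The other usable Tfrc probe, with the sequence above, did not show these differences. It had a mean of 0.16 ± 0.18 (SD, n = 10), was highest in mouse 10 (0.44) and lowest in mouse 6 (−0.18), and did not pass the spread test (SD 0.17 in Cy5, 0.11 in Cy3, adjusted p = 0.303, Pitman-Morgan test). Between the probes the log2 ratio differed by 0.37 on average with an SD of 0.31 over mice, which is larger than the SD of either probe. For the third probe only 1 array was well above background. Statements on Tfrc thus hold for 1 probe.

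Trf encodes transferrin, the carrier of iron in plasma. The log2 ratio was −0.96 in mouse 4, 0.11 at the median and 0.42 in mouse 3, and mice 4, 5, 6 and 7 were all at or below −0.52 while no other mouse was under 0.03. The normalized log2 Cy5 signal of this probe was lowest in these mice (15.0 to 15.5 against 15.7 to 16.2). Its Cy3 signal was highest in them (15.9 to 16.1 against 15.7 to 15.8), though the pool was the same RNA on every array. The low ratio of this probe thus came in part from the pool channel. The SD was 0.40 in Cy5 and 0.15 in Cy3 (adjusted p = 0.0104, Pitman-Morgan test), a call that was lost without mouse 4 (adjusted p = 0.0656). The second probe was lowest in mouse 5 (−0.59), highest in mouse 8 (0.41) and passed with an adjusted p of 4.69e-05. The adipocyte list was lowest in the same mice, and its part in the result was not tested.

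Slc11a2 encodes DMT1, which carries ferrous iron across endosomal and plasma membranes. It ranged from −0.65 in mouse 9 over a median of −0.06 to 0.73 in mouse 7, which is 2.60-fold. The SD was 0.52 in Cy5 and 0.10 in Cy3 (adjusted p = 0.000209, Pitman-Morgan test). The second probe passed as well (adjusted p = 0.0101), with its highest value in mouse 7 (0.64) and its lowest in mouse 8 (−0.45).

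The iron regulatory proteins had the smallest SDs of the loess log2 ratio among the 10 genes. Ireb2, which encodes the one that is degraded when iron is plentiful, had log2 ratios from −0.31 in mouse 10 to 0.17 in mouse 7. Mice 4, 5, 6 and 7 were the only ones above the pool, at 0.06 to 0.17, and the SD of 0.20 in Cy5 against 0.07 in Cy3 passed the test (adjusted p = 0.0105, Pitman-Morgan test). Its Cy5 signal was low, 57.3 to 153, and well above background on 9 arrays. With the scanner's own ratio the SD of the log2 ratio of Ireb2 was 0.54 in place of 0.19, above that of Tfrc (0.39) and Trf (0.48), so its place in this order rests on the processing. Aco1, whose product is an aconitase when it holds an iron-sulfur cluster and an RNA-binding regulator when it does not, lay between −0.12 in mouse 2 and 0.18 in mouse 7. Its SD was 0.11 in Cy5 and 0.10 in Cy3 (adjusted p = 0.797, Pitman-Morgan test), and 11.1% of expressed probes had a smaller SD of the log2 ratio. The Cy5 signal of Aco1 was low as well, 92.4 to 183. With the scanner's own ratio its SD of the log2 ratio was 0.23 in place of 0.10, still the smallest of the 10 genes.

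Levels against the pool were otherwise on both sides of it. Mean log2 ratios ranged from −0.38 ± 1.26 for Hmox1 to 0.53 ± 0.27 for Tfrc (SD, n = 10), against a median of 0.00 over all expressed probes. Median centring in place of loess moved that median to 0.32 and put Fth1, with values from 0.03 to 2.37, on 1 side of the pool together with Tfrc. The means of Hmox1, Trf, Cp and Ireb2, negative with loess and with the scanner's ratio, were positive under it. The median expressed probe was then set at 0, a setting chosen after seeing the data. The means became −0.06 for Hmox1, −0.03 for Cp and −0.30 for Ireb2, while Trf stayed positive at 0.33. The sign of these means against the pool thus depended on the scaling, for Trf also with that median at 0.

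Relations between iron genes and marker lists were tested over mice. There were 42 of them, of which 38 were taken over the 6 mice outside the set of mice 4, 5, 6 and 7, because at least 1 measure fell into these clusters. None passed after Benjamini-Hochberg adjustment over the 42, and 9 had an unadjusted permutation p under 0.05. With 6 mice the smallest exact p is 0.00278. The relations given below were chosen after their values were seen. Each slide held 2 arrays, too few for a relation within a slide, and among these 6 mice only 2 slides were complete.

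Among the 6 mice Hmox1 and the macrophage list had r = 0.96 and rho = 0.94 (exact permutation p = 0.00694 and 0.0167, adjusted p = 0.0729 and 0.14). Without the 2 mice farthest from the median r was 0.89. For Slc11a2 and the macrophage list r was 0.95 and rho 0.94 (exact permutation p = 0.00417 and 0.0167, adjusted p = 0.0619 and 0.14), with r = 0.85 without the 2 farthest mice. Hmox1 and Ftl1 had r = 0.91 and rho = 0.94 (exact permutation p = 0.0153 and 0.0167, adjusted p = 0.107 and 0.14), and 0.69 without these mice. Slc11a2 and the adipocyte list had r = −0.89 and rho = −0.94 (exact permutation p = 0.0153 and 0.0167, adjusted p = 0.107 and 0.14), and −0.71 without them. For Trf with Cp, both lowest in the same 4 mice, r among the other 6 was −0.63 (exact permutation p = 0.189, adjusted p = 0.441; rho = −0.60, exact permutation p = 0.242, adjusted p = 0.597).

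Over all 10 mice Tfrc and Fth1 had r = 0.81 and rho = 0.53 (permutation p = 0.00442 and 0.123, adjusted p = 0.0619 and 0.397). Leaving out the 2 mice farthest from the median of Tfrc gave r = 0.65, and differences within the 5 slides gave 0.90 (exact p = 0.375). Among the 6 mice other than 4, 5, 6 and 7 it was −0.53, so the positive value rests on the 4 mice that were highest in Fth1. Fth1 and the blood list had r = −0.87 and rho = −0.72 (permutation p = 0.00198 and 0.0238, adjusted p = 0.0619 and 0.167), −0.96 without the 2 farthest mice and −0.83 within slides (exact p = 0.25). Mice 4, 5, 6 and 7 were highest in Fth1 and lowest in the blood list mean, so this r partly restates that split. Among the other 6 mice r was −0.74 (permutation test, adjusted p = 0.496), and under median centring it was −0.55.

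**Figure D4:**
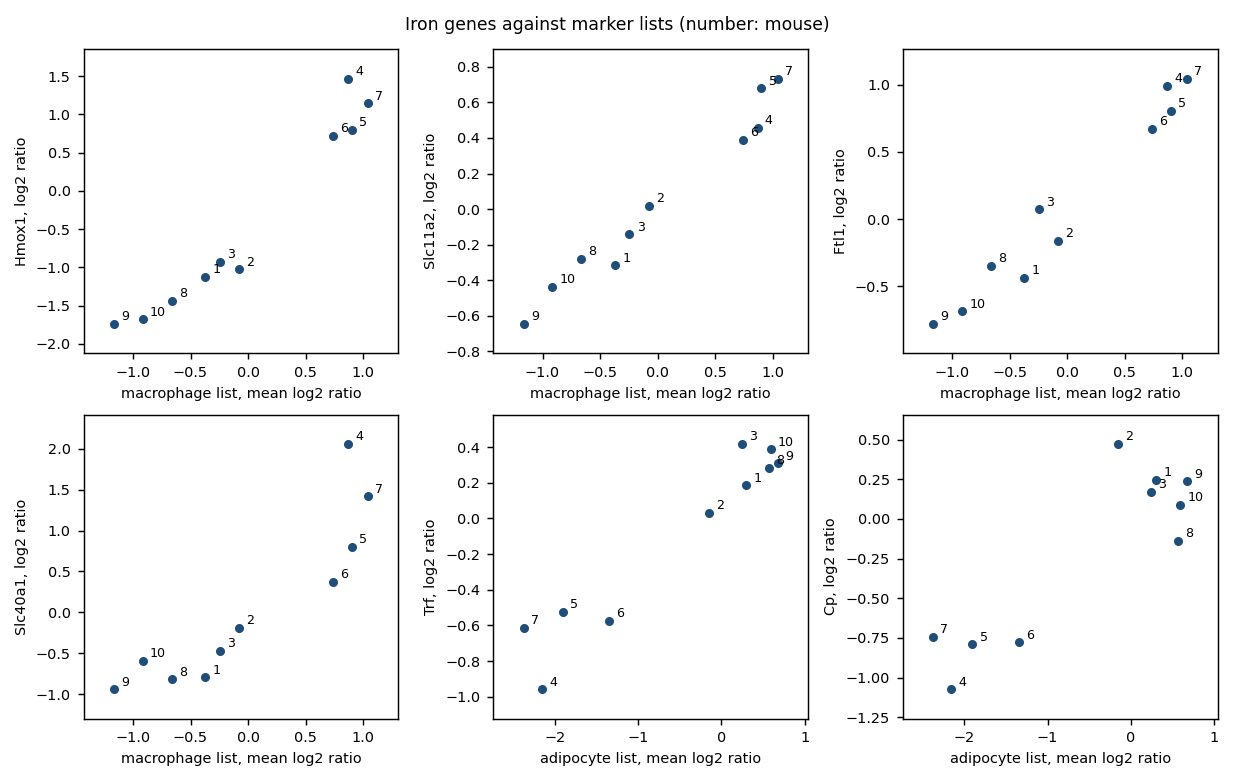
Log2 ratio of 6 iron genes (vertical axes) against the mean log2 ratio of the macrophage or adipocyte list (horizontal axes), 1 numbered point per mouse. Mice 4, 5, 6 and 7 lie apart in every panel, above the others for Hmox1, Slc11a2, Ftl1 and Slc40a1 and below them for Trf and Cp.

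For the 3 genes with the largest SD, the probes with the most similar course over the 10 mice were sought by root mean square difference of median-centred log2 ratios. Nearest to Hmox1 were a probe of a transcript without a symbol (0.18), Creg1 (0.19), Prkcb (0.20), Mmp3 (0.21) and Mmp12 (0.21). Nearest to Slc40a1 were Gclm (0.24), Cbr3 (0.26), Srxn1 (0.26), Esd (0.28) and Panx1 (0.28). For Ftl1 those given here were an unnamed probe (0.07), Prkcd (0.09), Lyzl4 (0.09) and Casp1 (0.10).

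A wider list of 40 iron genes was looked at for comparison, of which 35 were expressed with complete values. Among the 33 that could be tested for spread 29 varied more in the mice than in the pool (background 59.8%) and 4 did not pass. In 10 of the 35 genes mice 4, 5, 6 and 7 were highest, in 10 they were lowest and in 15 they overlapped with the other mice, beside 17.9% highest and 21.3% lowest among all expressed probes, and no test was made of these counts. Of 9 genes of haem and haemoglobin salvage 2 were lowest in these mice, Hp and Cd163, the receptor for haemoglobin bound to haptoglobin, and 6 were highest, among them Blvra and Blvrb, which reduce the biliverdin that haem oxygenase makes, and Flvcr1, a haem exporter listed as Mfsd7b. Of 6 expressed genes of export and the hepcidin axis 5 were lowest in them and none highest. These include dim probes. Tmprss6, well above background on 6 arrays, reached 0.0232 in these mice and was as low as 0.0248 in the others. Hamp2 was well above background on 7 arrays. Of 6 genes of transferrin uptake and ferrireductases 5 overlapped. Hamp, the gene of hepcidin, was not well above background on any array.

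The 8 genes of the wider list with the largest SD are named here. Hp, haptoglobin, ranged from −1.70 in mouse 7 to 0.75 in mouse 1 (adjusted p = 0.00235, Pitman-Morgan test). Its SD was 0.52 in Cy5 and 0.36 in Cy3, where the median of all tested probes was 0.08 in Cy3. The spread of its ratio may thus come in part from the pool channel. Blvrb ranged from −0.80 in mouse 9 to 1.40 in mouse 4 (adjusted p = 1.49e-07), and Flvcr1 from −1.07 in mouse 9 to 0.71 in mouse 6 (adjusted p = 1.29e-05). Heph, hephaestin, the membrane-bound relative of ceruloplasmin, was lowest in mouse 7 (−1.30) and highest in mouse 9 (0.47, adjusted p = 4.22e-06). Hp and Heph were lowest in mice 4, 5, 6 and 7, as was Steap4, a ferrireductase, from −1.48 in mouse 7 to 0.28 in mouse 9 (adjusted p = 3.68e-06).

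Others of the 8 followed a different order. Tfr2, transferrin receptor 2, was lowest in mouse 4 (−1.64) and highest in mouse 2 (0.82, adjusted p = 2.40e-06). Slc39a8, a metal transporter, was lowest in mouse 4 (−0.96) and mouse 2 (−0.94) and highest in mouse 1 (1.21, adjusted p = 1.39e-06). Lcn2, lipocalin 2, which binds iron through siderophores, was highest in mouse 2 at 1.54 and at most 0.28 in the other mice (adjusted p = 5.25e-08).

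**Figure D5:**
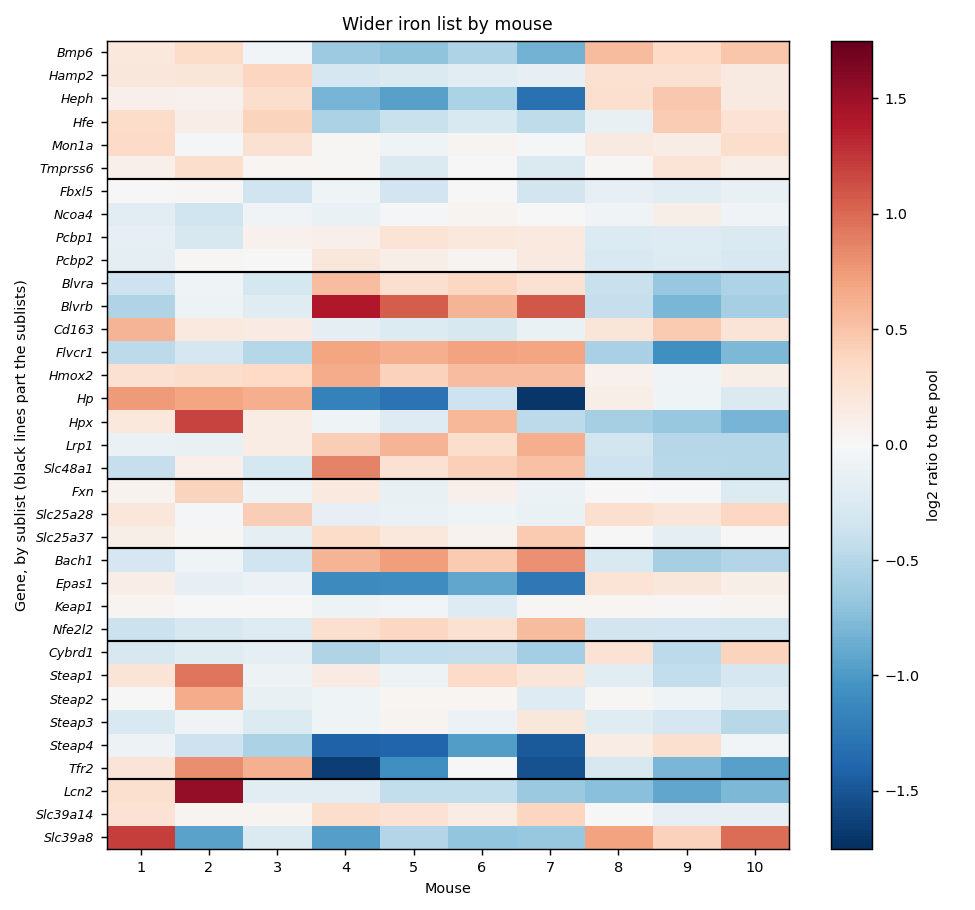
Log2 ratio to the pool (colour) of the 35 expressed genes of the wider iron list (vertical axis) in each of the 10 mice (horizontal axis), with black lines between sublists. Blvrb is highest in mouse 4 (1.40), Hp lowest in mouse 7 (−1.70) and Lcn2 highest in mouse 2 (1.54).

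Promoter sequences from RefSeq (GRCm38.p6) were matched for 6 of the 10 genes, Cp, Aco1, Ftl1, Ireb2, Tfrc and Fth1, and the 250 bases before each start were searched on both strands. The letters TGA and GC with 5 bases between them were found in 1 window of Tfrc and in no window of the other 5 genes. Of all 32851 promoters 37.2% hold this pattern. Its spacing is not that of the core of the antioxidant response element, which was itself not searched. ACGTG, a core of the hypoxia response element, was found in 1 window of Tfrc (16.6% of all). GCGTG, its other core, was found in Ftl1, Fth1 and Tfrc (28.2% of all). The windows of Ftl1, whose probes were highest in the same mice as that of Fth1, and of the upstream start of Tfrc are shown with matches to GCGTG, read on either strand, in capitals.
Ftl1 (chr7:45459887-45460136, minus strand): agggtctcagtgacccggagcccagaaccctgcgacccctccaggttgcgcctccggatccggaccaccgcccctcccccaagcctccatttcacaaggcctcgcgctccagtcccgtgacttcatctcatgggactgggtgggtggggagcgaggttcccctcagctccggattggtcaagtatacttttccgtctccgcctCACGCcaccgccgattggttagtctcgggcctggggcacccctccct
Tfrc (chr16:32608646-32608895, plus strand): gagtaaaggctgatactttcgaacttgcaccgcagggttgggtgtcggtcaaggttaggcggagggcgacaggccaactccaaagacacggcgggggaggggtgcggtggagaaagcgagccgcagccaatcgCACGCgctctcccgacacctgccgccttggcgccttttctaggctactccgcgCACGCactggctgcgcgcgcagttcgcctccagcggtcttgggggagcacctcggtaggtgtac
The match in Ftl1 begins 47 bases before the start, and those in Tfrc begin 117 and 64 bases before it. A match of these letters is a description and no site.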

How the data were processed

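Expression in eWAT was measured on 10 two-colour Agilent arrays on 5 slides. The authors deposited scanner files with the spot intensity of each dye and the scanner's log10 ratio (Agilent Feature Extraction 10.7.3.1 per the labels), and a table of log2 normalized values for 30733 spots. Each column of that deposited table has the same median (8.52) and followed the log2 Cy5 signal of its array (r 0.994 to 0.999). How it was normalized is not given in the sources used here. It was used for differences only.

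Intensities were corrected with normexp (offset 50) and loess within arrays (limma 3.58.1, R 4.3.3), which shrinks ratios of dim probes. Control and outlier spots were left out, spots of a probe were averaged, and channels were normalized with Aquantile. No spot was saturated. Median Cy5 signals were 54.8 to 81.3. The number of arrays limits the precision. Of 55681 probes 27811 were well above background in Cy5 on at least 5 arrays, and 25137 in both dyes. The probe with the highest mean Cy5 signal stood for a gene. All probes of the 10 genes are described, the 8 of the wider list with the largest SD, and the 5 nearest probes of 3 genes, of which 1 is not reported here. Tests used a threshold of 0.05 and were tested on simulated data. A measure was clustered if its widest gap, leaving at least 3 mice on each side, was at least 0.4 of its range or split the mice as the first component did. Permutations were 100000 over 10 mice and all pairings under 10. Markers were matched by symbol or accession. Python was 3.11.15. Genes and lists were chosen with earlier results of these data known.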

Additional observations from a re-analysis of the deposited data

Results flagged for a closer look

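In 51 probes checked (16 of the iron genes and 35 of the wider list) 3 had 1 mouse well away from the rest (chance alone marks about 1 probe in 20), and none of them belonged to the 10 iron genes. Steap2, a ferrireductase, was at 0.65 in mouse 2 and at most 0.03 in the others, a gap of 0.703 of the whole range. Lcn2 was at 1.54 in mouse 2 with 0.28 as the next value, a gap of 0.511 of the range. Mouse 2 also stood apart over all expressed probes, on the second principal component (8.8% of the variance). It lay there at −0.93, against −0.01 to 0.21 in the other mice. Keap1, the sensor that holds back Nfe2l2, was at −0.23 in mouse 6 with −0.08 as the next value, a gap of 0.52 of the range.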

How the results depend on the processing

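The count of iron genes that varied more than the pool was 8 and stayed between 6 and 8 when each mouse was left out in turn, and it was 3 without normalization between arrays. In the other settings tried it was 7 or 8, and 9 when any probe of a gene sufficed, which adds Ftl1. The direction turned for Aco1 alone, whose log2 ratio of the Cy5 SD over the Cy3 SD, 0.14, was −0.0708 without normalization between arrays and between −0.253 and 0.665 with a mouse left out; Aco1 passed in no setting. No slide effect was called in any setting. Of the 42 relations 0 passed, against 1 under median centring, 4 with the scanner's ratio, 4 with the deposited values, and 0 to 1 with a mouse left out (1 without mouse 4, Fth1 with the blood list). Hmox1 with the macrophage list passed with the scanner's ratio and with the deposited values (adjusted p = 0.0437 in both, exact permutation test), as did Fth1 with the blood list, and Tfrc with Fth1 passed with these and with median centring. Slc11a2 with the macrophage list passed with the scanner's ratio, and Trf with the adipocyte list with the deposited values (r = 0.92). The r of Slc11a2 with the adipocyte list was 0.19 under median centring. Limited to the 6 mice of the larger set, an alternative chosen after seeing the data, the r of Tfrc with Fth1 was −0.53. Within the same 6 mice the r of Fth1 with the blood list was −0.74. Genes with all mice on 1 side of the pool numbered 1, against 2 under median centring and 3 (Tfrc, Fth1 and, below the pool, Ireb2) when the median expressed probe was then set at 0, also chosen after seeing the data. The cause of these changes was not tested. No paired analysis was possible because all mice are of 1 group. Dim probes (Ireb2, Aco1, the second Slc11a2 and Cp probes, and in the wider list Cd163, Hamp2 and Tmprss6) lie near background, which limits their ratios.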
